A study of Mus musculus with 6 samples.

Results

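The interferon-induced OAS, Mx and PKR families were described through 9 genes: Oas1b, Oas1g, Oas2, Oas3, Oasl1, Oasl2, Mx1, Mx2 and Eif2ak2, which encodes PKR. They were chosen by name as antiviral effectors, and all 9 were measured among 22180 genes on the array. Each member had 1 probe set that names it alone, and 1 further probe set, for 10 in all, is shared by Oas1a and Oas1g. Expression was measured in 6 tumours of B16-F1, a pigmented mouse melanoma line, grown for 20 days in the flank of C57BL6 mice. Of these, 3 grew in hosts of the genotype Stat2 KO and 3 in WT hosts, with 1 array per tumour and the same implanted line in both groups. The labels give the knockout for the host only and name no allele, sex or age, so the host cells of a tumour lack STAT2, and nothing is stated about Stat2 in the implanted cells. Whether the tumours came from separate mice is not stated, and the p-values reflect the tumour-to-tumour spread of these 6. Levels are on the log2 scale, 1 per probe set and tumour, and a difference is always Stat2 KO host minus WT host.

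Type I interferon activates a complex containing STAT2 and IRF9 that binds interferon-stimulated response elements and switches on antiviral genes. The OAS enzymes sense double-stranded RNA and make 2′,5′-linked oligoadenylates, which lead to the cutting of RNA in the cell. PKR also senses double-stranded RNA and phosphorylates the initiation factor eIF2α, which lowers protein synthesis, and Mx proteins are dynamin-like GTPases that block viruses after entry. In C57BL mice some of these genes are damaged: the RefSeq table of the C57BL/6J reference lists Oas1b, Mx1 and Mx2 as transcribed pseudogenes and the other 6 members as protein coding.

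Promoter sequences, where the STAT2 complex can bind, were found in the RefSeq table (build GRCm38.p6) for 5 of the 9 members: Oas1g, Oas3, Oasl1, Oasl2 and Eif2ak2. Each sequence runs from 250 bases before to 50 bases after a gene start. For Oas3, Oasl1 and Oasl2 this start is not the outer edge of the listed gene, and distances below count from the start used here. The core of the interferon-stimulated response element, GAAA followed by any 2 bases and a second GAAA, searched on both strands, occurred in 3 of these 5 and in 3.44% of all 32851 promoters of the table. The stretches around the matches are shown because they allow these members to be compared letter by letter, with the matched bases in capitals and 25 bases on each side where the promoter reaches that far.
Oas1g (chr5:120887591-120887656, minus strand): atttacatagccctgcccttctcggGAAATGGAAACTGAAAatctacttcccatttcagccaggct
Oas3 (chr5:120777700-120777759, minus strand): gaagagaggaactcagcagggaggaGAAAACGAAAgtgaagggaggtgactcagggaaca
Eif2ak2 (chr17:78882523-78882579, minus strand): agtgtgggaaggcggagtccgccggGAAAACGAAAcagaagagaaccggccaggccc
Oas1g held 2 overlapping matches, beginning 18 bases before the gene start. The Oas3 match began 75 bases before the start and that of Eif2ak2 18 bases after it, and both read the same 10 letters. In the Oasl1 and Oasl2 windows 0 matches were found. The gamma-activated site TTCNNNGAA, a palindrome, occurred in Eif2ak2 alone of the 5, 178 bases before the start, and in 8.3% of all promoters. A match is a run of letters and was not tested as a binding site.

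None of the 9 members passed the test for a difference between hosts: the limma adjusted p-values, over all 22180 genes, ran from 0.588 for Oasl2 to 0.940 for Oas2. The count was 0 of 9 at an adjusted p under 0.05, a threshold that 0.00902% of all genes passed, and also 0 of 9 at an unadjusted p under 0.05, which 8.82% of all genes passed. The unadjusted count was 1 of 9, Oasl2, after median centring, cyclic loess and a further quantile normalization (limma unadjusted p = 0.027, 0.0327 and 0.0342), with array weights (0.0241) and with WT replicate 1 or 2 left out (0.0303 and 0.0412). It was 1 of 9, Mx2, with Stat2 KO replicate 1 left out (0.0403). In all 9 members the tumours of the 2 hosts overlapped. Groups did not overlap in 13.3% of all genes, and with 9 genes a count of 0 is near that share and does not set the members apart. The difference was below 0 in 7 members and above 0 in Oas3 and Oasl1, with a median of -0.068, while 46% of all genes were below 0 and their median was 0.021. Oasl2, Mx2, Eif2ak2 and Oas1g had differences between -0.40 and -0.19, and the other 5 members lay between -0.068 and 0.13. In whole tumours fewer cells of a type and less RNA per cell cannot be told apart. The division into members that differed more and members that differed little was made from the values and is a description.

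**Figure D1:**
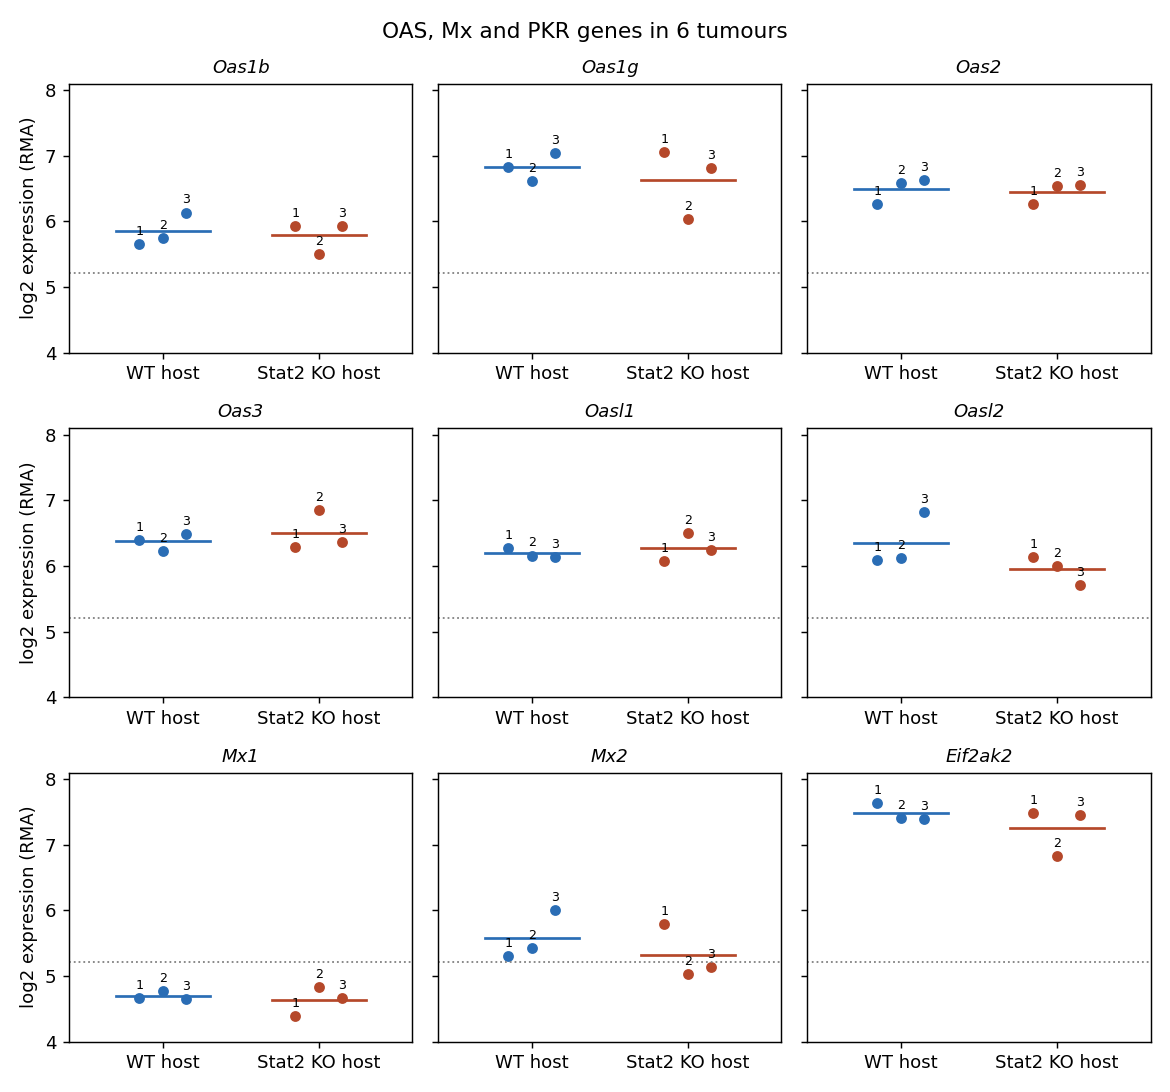
Log2 expression (y axis) of each member in the 3 tumours of WT hosts (blue) and the 3 tumours of Stat2 KO hosts (red), with replicate numbers at the points, group means as bars and 5.21, the median of olfactory receptor genes, as a dotted line. The groups overlap in every panel, Mx1 lies below the dotted line in all 6 tumours, and the single high tumour of Oasl2 is WT replicate 3 at 6.83.

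The small synthetases are represented by Oas1g and Oas1b. Oas1g, an active 2′,5′-oligoadenylate synthetase gene, read 6.83, 6.62 and 7.04 in WT hosts (replicates 1, 2 and 3, the order of all values here) and 7.06, 6.04 and 6.82 in Stat2 KO hosts. The highest and the lowest of the 6 values both came from Stat2 KO hosts. The means were 6.64 ± 0.53 for Stat2 KO and 6.83 ± 0.21 for WT hosts (SD, n = 3 each), a difference of -0.19 (SE 0.226, limma adjusted p = 0.802). The 95% interval reached from -0.68 to 0.30. The size and direction rested on Stat2 KO replicate 2: without it the Oas1g difference was 0.11, and without Stat2 KO replicate 1 it was -0.40.

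Oas1b, known for flavivirus resistance in mouse strains with an intact copy, read 5.66, 5.75 and 6.14 in WT hosts and 5.94, 5.50 and 5.93 in Stat2 KO hosts. The WT values spanned those of 2 Stat2 KO tumours, and only Stat2 KO replicate 2 lay below all WT tumours. The difference was -0.059 (SE 0.172, limma adjusted p = 0.927, 95% interval -0.43 to 0.32). Leaving out Stat2 KO replicate 2 turned it to 0.086, and leaving out WT replicate 3 turned it to 0.085. The probe set shared by Oas1a and Oas1g read 5.25, 5.27 and 5.28 in WT hosts and 5.27, 5.23 and 5.29 in Stat2 KO hosts. All 6 values lay just above 5.21, the median of the olfactory receptor genes used below as a rough guide to background, and they give neither gene a value of its own. Its difference was -0.0043 (SE 0.132, adjusted p = 0.994 in the limma fit over all 41345 probe sets).

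The larger synthetases Oas2 and Oas3, which carry repeated OAS units in 1 protein, lie next to each other on chromosome 5, at the end of the stretch that also holds Oas1e, Oas1c, Oas1b, Oas1f, Oas1h and Oas1g. Oas2 read 6.27, 6.58 and 6.63 in WT hosts and 6.27, 6.54 and 6.55 in Stat2 KO hosts. Both groups covered nearly the same range, and the difference was -0.040 (SE 0.148, limma adjusted p = 0.940, 95% interval -0.36 to 0.28). Oas3 read 6.40, 6.22 and 6.49 in WT hosts and 6.29, 6.85 and 6.36 in Stat2 KO hosts. Stat2 KO replicate 2 was the highest tumour and the other Stat2 KO tumours lay among the WT values. The Oas3 difference was 0.13 (SE 0.165, limma adjusted p = 0.814, 95% interval -0.23 to 0.49), and it was -0.046 without Stat2 KO replicate 2.

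The OAS-like genes Oasl1 and Oasl2 are neighbours on chromosome 5, apart from the OAS stretch, with 0 protein-coding genes between them. Oasl2, whose protein keeps synthetase activity in the mouse, had the largest difference of the 9 members in the 6 tumours, a rank that went to Eif2ak2 without Stat2 KO replicate 3 or WT replicate 3 and to Mx2 without Stat2 KO replicate 1. It read 6.09, 6.13 and 6.83 in WT hosts and 6.14, 6.003 and 5.70 in Stat2 KO hosts. WT replicate 3 was the highest tumour, while the other WT tumours lay just below Stat2 KO replicate 1. The means were 5.95 ± 0.22 for Stat2 KO and 6.35 ± 0.41 for WT hosts (SD, n = 3 each), so the Stat2 KO level was 75.8% of the WT level on the linear scale. The difference of -0.40 (SE 0.199) had a limma adjusted p of 0.588 and a 95% interval of -0.83 to 0.033. Without WT replicate 3 the Oasl2 difference was -0.16, and it stayed below 0 with any 1 tumour left out, from -0.53 to -0.16.

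Oasl1, which has no synthetase activity and restrains translation of the interferon regulator IRF7, read 6.28, 6.16 and 6.14 in WT hosts and 6.07, 6.51 and 6.24 in Stat2 KO hosts. In Stat2 KO hosts 1 tumour lay below the narrow WT range, 1 within it and 1 above it. The difference was 0.078 (SE 0.145, limma adjusted p = 0.878, 95% interval -0.24 to 0.39), and -0.039 without Stat2 KO replicate 2.

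Mx1 and Mx2 lie close together on chromosome 16 with the coding gene Fam3b between them. Mx1, the nuclear Mx protein known for influenza resistance in strains with an intact gene, read 4.67, 4.78 and 4.65 in WT hosts and 4.40, 4.83 and 4.67 in Stat2 KO hosts. All 6 values lay below 5.21, the median of 1105 olfactory receptor genes, taken here as a rough guide to background because tumours have no known use for them. A signal above background was therefore not shown for the Mx1 probe set, and its difference of -0.068 (SE 0.163, limma adjusted p = 0.909) says little about the transcript.

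Mx2, the cytoplasmic Mx protein, read 5.30, 5.43 and 6.003 in WT hosts and 5.80, 5.03 and 5.14 in Stat2 KO hosts. The values lay between 5.03 and 6.003, and Stat2 KO replicates 2 and 3 lay below 5.21. These replicates also lay below all WT tumours, while Stat2 KO replicate 1 lay among the WT values. The difference was -0.26 (SE 0.226, limma adjusted p = 0.735, 95% interval -0.75 to 0.23). It moved to -0.50 without Stat2 KO replicate 1 and to -0.046 without WT replicate 3.

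Eif2ak2, the gene of PKR, read 7.64, 7.40 and 7.39 in WT hosts and 7.48, 6.84 and 7.45 in Stat2 KO hosts. It was the 1 member that lay above 6.72, the 95th percentile of the olfactory receptor genes, in all 6 tumours; Oas1g did so in 4, Oas3 and Oasl2 in 1 each, and the others in 0. In Eif2ak2 2 of the 3 Stat2 KO tumours lay within the WT range and Stat2 KO replicate 2 lay below it. The means were 7.26 ± 0.36 for Stat2 KO and 7.48 ± 0.14 for WT hosts (SD, n = 3 each), a difference of -0.22 (SE 0.178, limma adjusted p = 0.715, 95% interval -0.61 to 0.17). Without Stat2 KO replicate 2 the Eif2ak2 difference was -0.011.

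**Figure D2:**
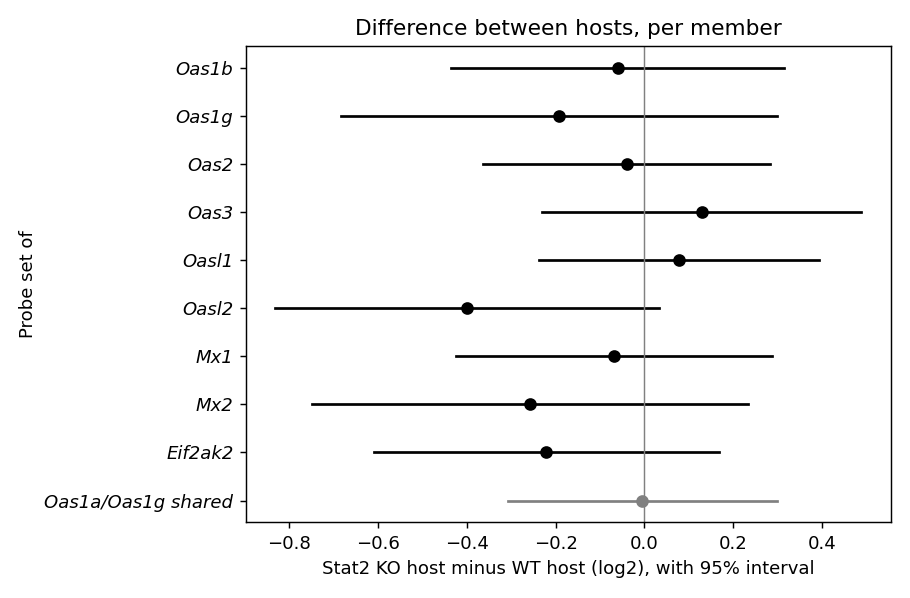
Difference between hosts (Stat2 KO host minus WT host, log2, x axis) of the 9 members, with 95% intervals from the limma fit over 22180 genes, and of the probe set shared by Oas1a and Oas1g, in grey, from the fit over 41345 probe sets. Every interval includes 0, and that of Oasl2, -0.83 to 0.033, reaches least far above it.

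The members did not follow 1 order of the tumours. WT replicate 3 was the highest of the 6 tumours for 4 members, Oas1b, Oas2, Oasl2 and Mx2, and the lowest for 0. Stat2 KO replicate 2 was the lowest for 4 members, Oas1b, Oas1g, Mx2 and Eif2ak2, and the highest for 3 others, Oas3, Oasl1 and Mx1. The mean deviation of the 9 members from their own averages was -0.021, -0.027 and 0.22 in WT hosts, against 0.013, -0.13 and -0.052 in Stat2 KO hosts. WT replicate 3 thus stood apart in its own group, and the other WT tumours lay between Stat2 KO replicates 1 and 3. The array of Stat2 KO replicate 2 also had the highest median over all probe sets, 6.22 against 6.06 to 6.17 on the others, and the lowest summed level of 10 melanocyte markers, 14.8 against 14.99 to 15.32 (log2 of the summed linear values). The part of these in the members' values was not tested.

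**Figure D3:**
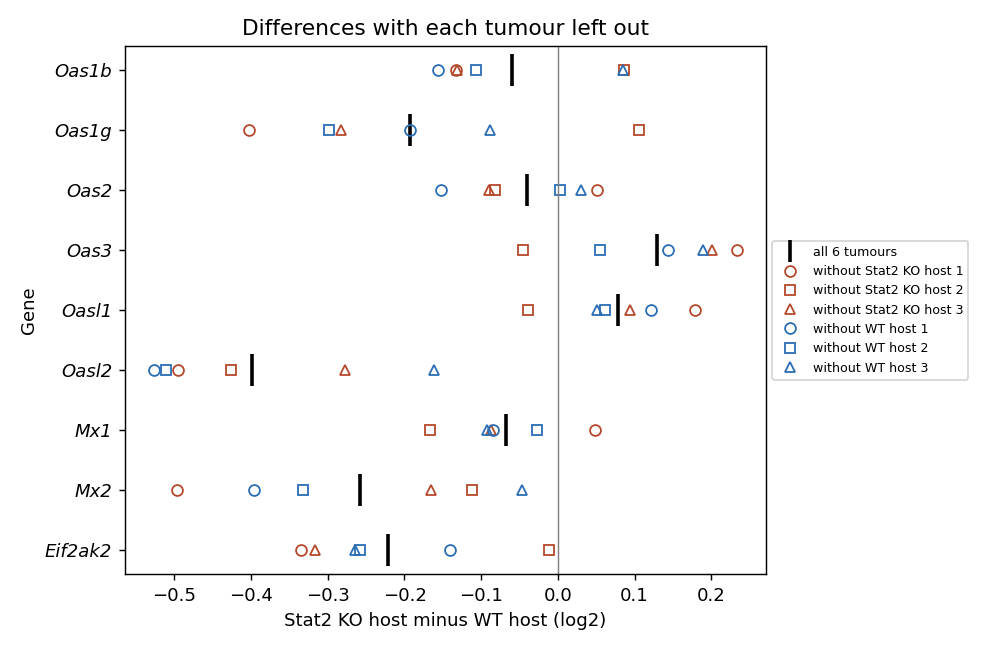
Difference of each member (Stat2 KO host minus WT host, log2, x axis) with all 6 tumours (black bar) and with each tumour left out in turn (red for Stat2 KO hosts, blue for WT hosts; circle, square and triangle for replicates 1, 2 and 3). Oasl2, Mx2 and Eif2ak2 stay below 0 throughout, and the other 6 members cross 0.

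Leaving out 1 tumour at a time turned the direction of 6 members and left Oasl2, Mx2 and Eif2ak2 below 0 each time. Eif2ak2 came within 0.011 of 0 and Mx2 within 0.046. Oasl2 was the member whose direction had the widest margin, with -0.16 as its value nearest 0.

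Relatives were compared within each tumour, which asks whether a pair of genes changed unequally between hosts. This cancels a log2 shift shared by all genes of an array, but not scaling that depends on level. Oasl2 relative to Oasl1, set to a mean of 0 in WT hosts, read -0.085, -0.66 and -0.69 in the tumours from Stat2 KO hosts, and -0.34, -0.19 and 0.53 in those from WT hosts. The Stat2 KO tumours were lower by 0.48 on average, but the groups overlapped (exact two-sided permutation p = 0.3, where 3 against 3 cannot give less than 0.1). Without WT replicate 3 this value was -0.21. The other pairs differed less: -0.19 for Mx2 relative to Mx1 (exact permutation p = 0.6), which bears little on the pair because the Mx1 probe set was not shown to read above background, -0.17 for Oas2 relative to Oas3 and -0.13 for Oas1g relative to Oas1b (exact permutation p = 0.5 for both). After Benjamini-Hochberg adjustment over the 4 pairs each exact permutation p was 0.6. Mx2 relative to Mx1 turned to 0.054 when Stat2 KO replicate 2 was left out and to 0.046 when WT replicate 3 was. Oas2 relative to Oas3 was -0.036 without Stat2 KO replicate 2, and Oas1g relative to Oas1b 0.020 without it. The groups overlapped in each pair.

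Other interferon-induced genes, the IFIT genes with Rsad2 and Cmpk2, give a scale for these sizes in the same tumours. They were chosen with earlier results of these data known, so the contrast with the members is a description. These genes were lower in 7 of 7, with a median of -0.55 and a range from -0.91 for Cmpk2 to -0.025 for Ifit1bl1. Cmpk2 and Rsad2, which are not IFIT genes, had the largest differences, -0.91 and -0.73. At an unadjusted p under 0.05 there were 5 of these 7, against 0 of the 9 members and 3.48% of all genes in that direction, and 0 of the 7 had a limma adjusted p under 0.05. Ifit2 was among the 5 at a limma unadjusted p of 0.0499. Ifit3b, whose difference of -0.55 is the median of the 7, was also among the 5. The mean of Ifit3b was 5.43 in WT hosts and 4.88 in Stat2 KO hosts. Its Stat2 KO mean thus lay below 5.21, the median of the olfactory receptor genes, which limits what its difference says. Over the 3 other scalings the count was 4 or 5 of these 7 against 1 of the 9 members, Oasl2, and with any 1 tumour left out it was 4 of the 7 against 0 or 1 of the 9. With array weights it was 6 of the 7 against 1 of the 9. In that setting 1 of the 7 had a limma adjusted p under 0.05, as did 257 of all 22180 genes. In 3 of the 7, Cmpk2, Rsad2 and Ifit1, the highest Stat2 KO tumour lay below the lowest WT tumour, which holds for 5.11% of all genes and for 0 of the 9 members. The difference between these 7 genes and the 9 members was not tested.

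The rest of the pathway was read from lists of 51 gene names, of which 44 had a value, and counts below are over those measured. Of these 44 genes 0 passed at a limma adjusted p under 0.05 and 6 had an unadjusted p under 0.05, all lower. The other Oas1 genes were higher in 5 of 5 measured, with a median of 0.23, and 3 of them had means below 5.21. In Oas1e alone of these the groups did not overlap, as in 8.23% of all genes in that direction, with 5.23, 5.61 and 5.54 in WT and 5.64, 5.68 and 5.77 in Stat2 KO hosts. The difference of Oas1e was 0.23 (SE 0.146, limma adjusted p = 0.645). Downstream of the synthetases, the ribosome recycling factor gene Abce1 differed by -0.056 and Pde12, a phosphodiesterase that degrades oligoadenylates, by -0.18, with limma adjusted p-values of 0.912 and 0.707.

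Of 8 listed genes for regulators of PKR and for eIF2 and its partners, 6 were measured. Eif2s1, the gene of the PKR target eIF2α, had no value. The measured genes were lower in 5 of 6 with a median of -0.053, and 0 had an unadjusted p under 0.05. The RNA-binding protein gene Tarbp2, whose product inhibits PKR, differed by -0.15 (limma adjusted p = 0.748). Genes of the other eIF2 kinases and of the stress response that eIF2 phosphorylation starts were lower in 9 of 10 with a median of -0.37. An unadjusted p under 0.05 was reached by 5 of these 10, all lower, against 3.48% of all genes, and a limma adjusted p under 0.05 by 0. Atf4, the transcription factor translated when eIF2 is phosphorylated, read 7.67, 8.01 and 7.81 in WT hosts and 7.41, 7.35 and 7.14 in Stat2 KO hosts. All its Stat2 KO values lay below its WT values, with a difference of -0.52 (SE 0.143, limma adjusted p = 0.460). Its target Chac1, which degrades glutathione, read 7.90, 8.32 and 7.33 in WT and 6.999, 7.13 and 6.76 in Stat2 KO hosts. Its groups did not overlap either, and the Chac1 difference was -0.88 (SE 0.215, limma adjusted p = 0.390). Ddit3, which encodes the stress factor CHOP, differed by -0.59 and the asparagine synthetase gene Asns by -0.53, both with overlapping groups. Groups did not overlap in 4 of the 10 genes of this list, all lower, against 5.11% of all genes in that direction. The PKR gene itself overlapped between hosts in the same tumours, as given above.

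**Figure D4:**
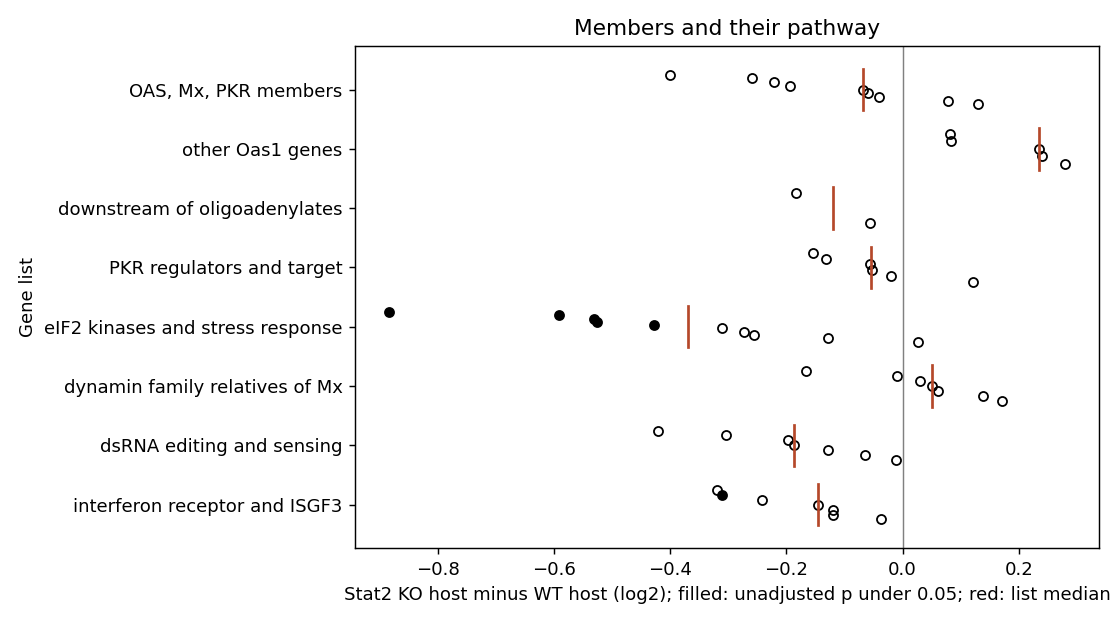
Difference between hosts (Stat2 KO host minus WT host, log2, x axis) of the 9 members and of 44 pathway genes in 7 lists (y axis), with 1 circle per gene, filled where the unadjusted p is under 0.05, and the median of each list as a red line. The members have 0 filled circles and a median of -0.068, whereas the list of eIF2 kinases and stress genes has 5 filled circles and a median of -0.37.

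The sensors and the editing enzyme of double-stranded RNA were lower in 7 of 7 with a median of -0.19, led by the nucleic acid sensor gene Zbp1 at -0.42 (limma adjusted p = 0.566) and the RNA sensor gene Ifih1 at -0.30, and 0 had an unadjusted p under 0.05. The dynamin relatives of Mx were lower in 2 and higher in 5, with a median of 0.051 and 0 at an unadjusted p under 0.05. The receptor and signalling genes upstream of the members were lower in 7 of 7 with a median of -0.15. Irf9 differed by -0.32 (SE 0.160, limma adjusted p = 0.590). Stat2 itself read 6.79, 6.70 and 6.70 in WT hosts and 6.45, 6.48 and 6.33 in Stat2 KO hosts, all lower in the knockout hosts, with a difference of -0.31 (SE 0.126, limma adjusted p = 0.532). Which exons this probe set reads was not known, so it is a weak check of the knockout.

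The tumours carried the markers of their line: all 10 melanocyte markers were measured, 0 of them with a mean below 5.21, and Tyrp1 and Pmel had means between 12.65 and 13.05. Among the other cell types, macrophage markers were lower in 12 of 13 in Stat2 KO hosts, with summed levels of 10.1 to 10.3 against 10.5 to 10.8 in WT hosts, and fibroblast markers in 6 of 7, with 9.35 to 9.83 against 10.05 to 10.15. Of these 20 markers 0 passed at a limma adjusted p under 0.05, and 0 had a mean over the 6 tumours below 5.21. A limma unadjusted p under 0.05 was reached by 5 of the 13 macrophage and 3 of the 7 fibroblast markers. All of these were lower, against 3.48% of all genes in that direction. Of them, Ms4a7, C1qc, Dcn and Lum had means below 6.72, the 95th percentile of the olfactory receptor genes. Cd68, C1qb, Lyz2 and Col3a1 had means above it. Groups did not overlap in 4 macrophage and 2 fibroblast markers, all lower, against 5.11% of all genes. The summed levels of the 9 members overlapped, with 9.34 to 9.54 in Stat2 KO and 9.46 to 9.70 in WT hosts. In WT replicate 3, the tumour with the highest Oasl2, the macrophage level was 10.5, the lowest of the WT tumours. Markers of dendritic cells, T cells, NK cells, B cells, neutrophils and endothelial cells had summed levels that overlapped between hosts. The part of these cell types in the members' values was not tested.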

How the data were processed

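Total RNA of 6 tumours was hybridized to Affymetrix arrays. Per the submitters' processing notes, the authors made the deposited log2 values by RMA in Affymetrix Expression Console 1.3.1; probe intensities were not used here. Among 41345 probe sets 23521 name 1 gene, 1814 several and 16010 none in the platform annotation. The brightest probe set naming a gene alone stood for it, without a filter on dim probe sets. Host differences came from limma 3.58.1 in R 4.3.3 (lmFit, eBayes with trend, two-sided, Benjamini-Hochberg over 22180 genes, threshold 0.05). The fit was also run on simulated data whose added differences were larger than that of any member. That run therefore does not bear on differences as small as those of the members. The number of arrays limits the precision. Pairs of relatives were compared by exact permutation. Deviations of same-numbered tumours correlated at 0.24, 0.079 and 0.0302 across genes, and those of differently numbered tumours at -0.289 to 0.205. With 3 tumours per host these values cannot decide whether replicate numbers pair the tumours. All 9 members are named; of each pathway list up to 4 genes with the smallest p could be. The members, lists and tests were chosen with earlier results of these data known. The IFIT genes, Rsad2 and Cmpk2 were added later for comparison, also with earlier results known.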

Additional observations from a re-analysis of the deposited data

How the results depend on the processing

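With limma, 0 of 139 recomputed member differences had an adjusted p under 0.05; the lowest was 0.162, for Oasl2 with array weights. Oasl2 stayed between -0.53 and -0.16, Mx2 between -0.50 and -0.046, and Eif2ak2 between -0.33 and -0.011. With array weights Oas1b turned to 0.070, Oas1g moved from -0.19 to -0.0020 and Eif2ak2 from -0.22 to -0.088. Leaving out 1 tumour at a time gave -0.16 to 0.086 for Oas1b, -0.40 to 0.11 for Oas1g, -0.15 to 0.051 for Oas2, -0.046 to 0.23 for Oas3, -0.039 to 0.18 for Oasl1 and -0.17 to 0.049 for Mx1. It gave -0.55 to 0.054 for Mx2 relative to Mx1 and -0.27 to 0.020 for Oas1g relative to Oas1b. Between 5 and 7 members were lower under the alternatives, and their median ran from -0.16 to -0.013. The count of all genes called, 2, was 0 after a further quantile normalization, after cyclic loess, over all probe sets and at an adjusted p under 0.01, 1 without the intensity trend, 257 with array weights, and 0 to 17 with 1 tumour left out. The replicate block left the Oasl2 difference at -0.40 (limma adjusted p = 0.480) and called 0 members. Whether replicate numbers pair the tumours is not known. Only genes brighter than the median gene included 4 members, so that setting gave no count over 9. Scaling moved the median of all genes from 0.021 to between -0.054 and 0.0056. Low signal limits the other 8 members more than Eif2ak2, the only member above the 95th percentile of olfactory receptor genes in all 6 tumours; Oas1g was above it in 4, Oas3 and Oasl2 in 1 each, and Mx1 and Mx2 were nearest to background.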
